A study of Arabidopsis thaliana with 4 samples.

Results

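ICL, SDP1, AIM1 and AAE18 are 4 genes of Arabidopsis thaliana that act in, or are assigned to, the breakdown of seed oil. They were chosen by locus, AT3G21720, AT5G04040, AT4G29010 and AT1G55320 in that order, and read from the probe sets paired with each gene alone. Each had 1 such probe set, so the 4 genes are 4 of the 16505 genes that could be named on the array. They were measured in wild-type seeds (Ler-0) and in seeds labelled wrky43-1, a mutant of the transcription factor gene WRKY43. Both genotypes received the same treatment: 10 mg of dry seed stood for 4 days in 2 µM abscisic acid (ABA), which delays germination, made up in liquid plant medium (0.5 MS). There were 2 biological replicates per genotype, each on its own array of 38408 probe sets, and no sample without the hormone was used here. The sources used here do not give the kind of lesion, the number of lines or the accession in which wrky43-1 was isolated.

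A seed such as that of Arabidopsis stores carbon as triacylglycerol in oil bodies. After germination lipases release the fatty acids, which are activated with coenzyme A and shortened step by step in the peroxisome by beta-oxidation. The acetyl-CoA that results passes through the glyoxylate cycle, which bypasses the steps of the citric acid cycle that lose carbon dioxide, and can then be turned into sugar for the growing seedling. SDP1 (SUGAR-DEPENDENT1) is a triacylglycerol lipase that starts this route. AAE18 belongs to the acyl-activating enzymes, many of which join acids to coenzyme A, and it is known for activating a synthetic auxin precursor in the peroxisome. AIM1 is a multifunctional protein that carries out the hydratase and dehydrogenase steps of beta-oxidation and was named after the abnormal inflorescence meristem of its mutant. ICL, isocitrate lyase, splits isocitrate into succinate and glyoxylate and is one of the enzymes specific to the glyoxylate cycle.

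The deposited values are on a scale that was read as log2, and 1 unit is then a 2-fold difference. Array medians were 4.34 and 4.34 in wild type and 4.43 and 4.40 in wrky43-1, so both were higher in wrky43-1. The largest gap between array medians, 0.09, is larger in size than the log2 difference of ICL given below, -0.05. Replicate arrays of wild type correlated with a Pearson's r of 0.986 and those of wrky43-1 with 0.987, while arrays of unlike genotype gave 0.978 to 0.981, across probe sets, which are not independent replicates. Of 8 genes of seed storage proteins and oleosins, the markers of the seed, 2 were measured: PAP85, a vicilin-like storage protein gene, read 12.89 and 12.83 in wild type and 12.63 and 12.70 in wrky43-1. OLEO3, an oleosin gene, read 7.24 and 7.28 in wild type and 7.17 and 7.18 in wrky43-1. Both seed markers lay lower in wrky43-1 without overlap, at log2 differences of -0.19 (SE 0.12, limma adjusted p = 0.493) and -0.09 (SE 0.11, limma adjusted p = 0.766). Among all genes 24.9% had no overlap with wrky43-1 lower and 21.7% with wrky43-1 higher. No probe set was paired with WRKY43, so the mutated gene could not be used to check the labels. By number, the 20 nearest named probe sets of each of the 4 genes all belonged to that gene's own chromosome (3 for ICL, 5 for SDP1, 4 for AIM1 and 1 for AAE18). None of the 4 probe sets shared its values with another probe set.

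None of the 4 genes differed between wrky43-1 and wild type past the threshold of the test across all probe sets. All 4 had means on the lower side in wrky43-1, by 3.11% for ICL up to 16.2% for AAE18, as had 52.6% of all genes. With a straight line on gene length removed, or without wrky43-1 replicate 1, 3 of the 4 were lower. The seed markers PAP85 and OLEO3 also had lower means in wrky43-1, by 12.5% and 5.76%. Their part in the differences of the 4 genes was not tested. Of the 4 genes only AAE18 had a difference larger than the range between replicate arrays in both genotypes. In limma, adjusted over the whole array by Benjamini-Hochberg, 0 of the 4 passed an adjusted p of 0.05. Among all 38408 probe sets, 1 was called higher and 0 lower, which is 0.0026% of those tested. The replicates are named biological in the labels. In whole seeds, fewer cells of a type and less RNA per cell cannot be told apart.

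SDP1, at the entry of the route, read 7.05 and 7.12 in wild type and 7.09 and 6.87 in wrky43-1. The genotypes overlapped, since the first wrky43-1 array lay between both wild-type arrays and only the second lay below them. The means were 7.09 ± 0.044 (SD, n = 2) in wild type and 6.98 ± 0.15 (SD, n = 2) in wrky43-1. The log2 difference was -0.11 (SE 0.14, limma adjusted p = 0.754), smaller than the range of 0.21 between the wrky43-1 arrays. Its 95% confidence interval ran from -0.47 to 0.26, that is from 0.721 to 1.20 times the wild-type level.

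AAE18 read 6.83 and 6.81 in wild type and 6.52 and 6.61 in wrky43-1. Both wrky43-1 arrays lay below both wild-type arrays, with a gap of 0.20 between the nearest ones, against a range of 0.017 within wild type and 0.087 within wrky43-1. The means were 6.82 ± 0.012 (SD, n = 2) and 6.57 ± 0.062 (SD, n = 2). The log2 difference of -0.25 (SE 0.12) had an unadjusted p of 0.0908 and an adjusted p of 0.387 in limma. The interval of -0.57 to 0.06 includes 0 and corresponds to 0.673 to 1.04 times the wild-type level.

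AIM1 read 7.64 and 7.45 in wild type and 7.38 and 7.37 in wrky43-1. Here the wild-type arrays differed from each other by 0.19, while the wrky43-1 arrays differed by 0.013. Both wrky43-1 arrays lay below both wild-type arrays, but the gap to the nearer one was 0.07. The means were 7.54 ± 0.13 (SD, n = 2) and 7.38 ± 0.0089 (SD, n = 2). The log2 difference of -0.17 (SE 0.13, limma adjusted p = 0.589) was smaller than the range within wild type, and its interval was -0.52 to 0.18.

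ICL, at the glyoxylate cycle, read 13.01 and 13.02 in wild type and 12.90 and 13.03 in wrky43-1. The wrky43-1 arrays lay on either side of the wild-type arrays, 1 below and 1 above both. The means were 13.01 ± 0.0090 (SD, n = 2) and 12.97 ± 0.091 (SD, n = 2). The log2 difference was -0.05 (SE 0.12, limma adjusted p = 0.894) and its interval was -0.37 to 0.28, from 0.772 to 1.22 times the wild-type level. Flags for detection and saturation were not used here, so it is not known whether a signal as high as that of ICL was still in the linear range of the scanner.

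**Figure D1:**
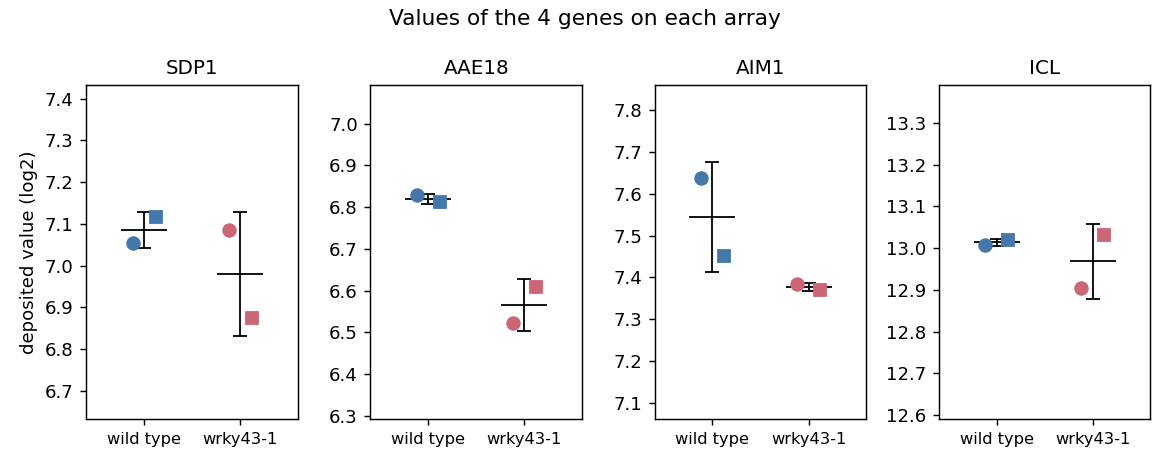
Deposited log2 value of SDP1, AAE18, AIM1 and ICL on each array, with circles for replicate 1, squares for replicate 2, and bars for the mean and SD of 2 arrays. Each vertical axis spans the same number of log2 units around the gene's own mean; the genotypes are apart for AAE18 and AIM1 and overlap for SDP1 and ICL.

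The genotypes did not overlap in 2 of the 4 genes, AAE18 and AIM1, both lower in wrky43-1. Among all 16505 genes 24.9% had no overlap with wrky43-1 lower and 21.7% with wrky43-1 higher. With 2 arrays against 2, the smallest p that a two-sided exact permutation test can give is 0.333, and this was the value for AAE18 and AIM1. The same exact test gave 0.667 for SDP1 and 1 for ICL. The 4 confidence intervals overlapped one another, and the differences between the 4 genes were not tested. Each of the 4 intervals lay within a 2-fold change in either direction, and each included 0.

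The other genes of the route were looked up in lists by locus. Of 42 genes in the lists of lipolysis, of beta-oxidation with fatty acid uptake, of its side steps, and of the glyoxylate cycle with gluconeogenesis, 7 were measured by a probe set of their own. The other 35 were not analysed here. In the 7, SDP1, AIM1 and ICL included, wrky43-1 was on the lower side in 7 and on the higher side in 0, with a median log2 difference of -0.17, and 0 passed the threshold in either direction. Over all genes 52.6% had a difference below 0 and the median was -0.01. With each array centred on the same median the share over all genes was 65.2%. Centring lowered every difference by the same amount, so the 7 genes, already below 0, could not rise above it. With a straight line on gene length removed, or without wrky43-1 replicate 1, 6 of the 7 were below 0 and ICL was above it. By length, 54.1% of genes of 2000 to 4000 bp and 77.7% of those of 4000 to 8000 bp had a difference below 0. AIM1 and PPDK, another of the 7, belong to the longer class and the rest of the 7 to the shorter.

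The lipolysis list was measured in full, with 4 of 4 members, a median log2 difference of -0.19 and 0 members past the threshold. The largest difference in it was not that of SDP1 but that of AT4G24160, a gene for which the reference gives only a locus code. It read 6.23 and 6.42 in wild type and 5.71 and 5.85 in wrky43-1. All 4 arrays separated by genotype, with means of 6.33 ± 0.14 and 5.78 ± 0.099 (SD, n = 2 each). The log2 difference of -0.55 (SE 0.14) was 0.684 times the wild-type level, with an interval of -0.92 to -0.17. It had an unadjusted p of 0.0147 and missed the threshold at an adjusted p of 0.223 in limma. Among all genes 6.07% were lower and 5.44% higher at an unadjusted p under 0.05.

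SDP1-LIKE, the closest relative of SDP1 by name, read 6.02 and 6.05 in wild type and 5.84 and 5.99 in wrky43-1. Its log2 difference of -0.12 (SE 0.12, limma adjusted p = 0.692) was close to the -0.11 of SDP1, and its genotypes did not overlap. Whether probes of either gene also bind the other transcript was not tested. The remaining member of the list, AT3G14360, read 4.97 and 5.15 against 4.74 and 4.85, a log2 difference of -0.27 (limma adjusted p = 0.413). In this list 3 of 4 members had no overlap with wrky43-1 lower, against 24.9% of all genes, and SDP1 was the exception. PAP85, a seed marker outside the list, had a log2 difference of -0.19 as well.

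Further along the route, AIM1 was the single measured member of 16 for fatty acid uptake, activation and beta-oxidation, and none of the 8 genes of the side steps was measured. Besides ICL, 1 other of the 14 genes of the glyoxylate cycle and gluconeogenesis was measured, PPDK. It encodes pyruvate orthophosphate dikinase, which makes phosphoenolpyruvate from pyruvate. PPDK read 7.36 and 7.44 in wild type and 7.18 and 7.20 in wrky43-1, and all arrays of the mutant were below those of wild type. The log2 difference was -0.21 (SE 0.12, limma adjusted p = 0.454). PPDK spans 6365 bp. Among genes of 4000 to 8000 bp the median log2 difference was -0.18, and 53.1% had no overlap with wrky43-1 lower.

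AAE18 could be set beside 2 relatives by name, AAE15 and AAE16, of the 13 genes in the list of acyl-activating enzymes. AAE16 read 7.88 and 8.00 in wild type and 8.12 and 7.99 in wrky43-1, so the genotypes overlapped, with a log2 difference of 0.11 (SE 0.13). AAE15 read 6.08 and 6.24 in wild type and 5.65 and 6.17 in wrky43-1, a log2 difference of -0.25 (SE 0.22) that equals that of AAE18 to 2 decimals. The wrky43-1 arrays of AAE15 were 0.53 apart, against 0.087 for AAE18. The genotypes did not overlap in 1 of these 3 genes, AAE18, against 24.9% lower and 21.7% higher among all genes, and 0 of the 3 passed the threshold. The median of the 3 was -0.25, and 0.01 without wrky43-1 replicate 1, since AAE15 then turned positive.

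The lists of peroxisome import with antioxidant genes and of jasmonate synthesis had 1 measured member each, and neither passed the threshold. PEX4, a ubiquitin-conjugating enzyme of the peroxisome surface that takes part in recycling the import receptor, was 1 measured of 17 in the former. It read 6.90 and 6.93 in wild type and 7.47 and 7.01 in wrky43-1, so wrky43-1 was higher without overlap. However, 1 of the mutant arrays carried most of its log2 difference of 0.32 (SE 0.19, limma adjusted p = 0.492). OPCL1, a ligase that activates a jasmonate precursor before its beta-oxidation, was 1 measured of 8 in the latter. It read 3.58 and 3.64 in wild type and 3.77 and 3.71 in wrky43-1, a log2 difference of 0.13 (SE 0.12). Its genotypes did not overlap either, with wrky43-1 higher, as in 21.7% of all genes. By mean value OPCL1 lay in the lowest 50 percent of probe sets.

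Markers of other tissues and stages were few. BAN, a flavonoid gene of the seed coat, was 1 measured of 5 endosperm and seed coat markers. It read 2.63 and 2.67 in wild type and 2.87 and 2.71 in wrky43-1. The log2 difference of BAN was 0.14 (SE 0.13), with wrky43-1 higher without overlap, as in 21.7% of all genes. By mean value BAN lay in the lowest 30 percent of probe sets. Of 10 photosynthesis genes, which mark greening seedlings, 2 were measured. LHCB4.1, a light-harvesting protein gene, read 8.86 and 8.99 in wild type and 8.47 and 8.69 in wrky43-1 (log2 difference -0.35, SE 0.14). PRK, the phosphoribulokinase gene of the Calvin cycle, read 3.53 and 3.92 in wild type and 5.05 and 3.74 in wrky43-1. By mean value PRK lay in the lowest 50 percent of probe sets. The genotypes did not overlap for LHCB4.1, with wrky43-1 lower, and overlapped for PRK. The part of these tissues in the differences of the 4 genes was not tested.

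**Figure D2:**
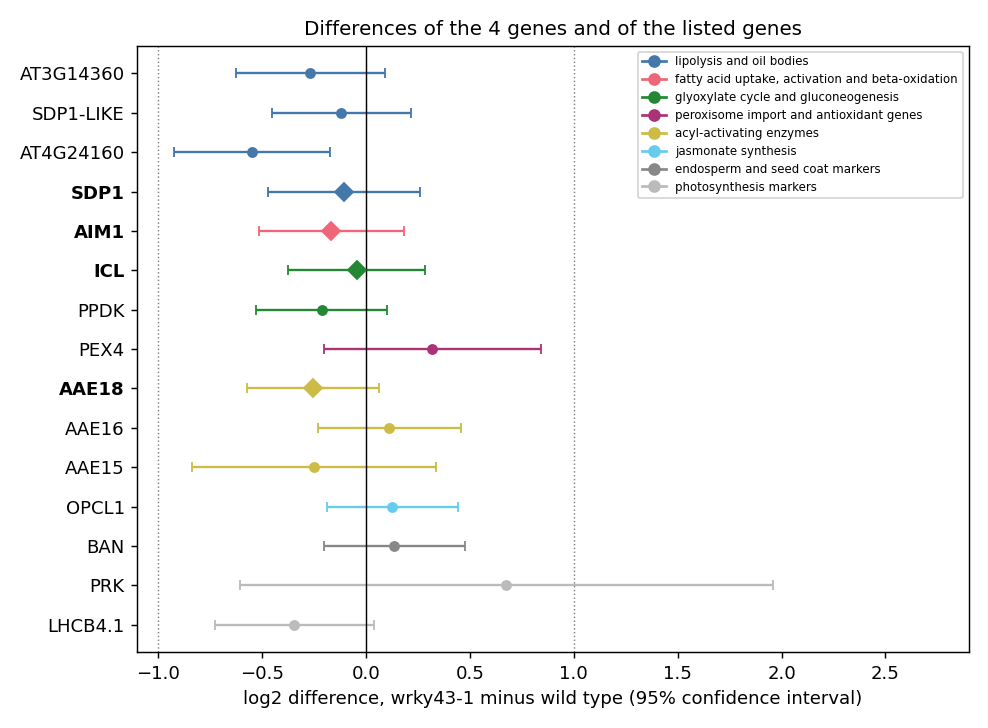
Log2 difference (wrky43-1 minus wild type) of SDP1, AIM1, ICL and AAE18 (diamonds, bold names) and of the other measured genes of the lists (circles), with 95% confidence intervals from limma, n = 2 arrays per genotype. Dotted lines mark a 2-fold change; the interval of AT4G24160 alone lies to one side of 0.

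The differences over the array went with gene length, and the 4 genes are longer than the median of all genes, 1906 bp. ICL spans 3567 bp in the reference, AAE18 3797 bp, SDP1 3863 bp and AIM1 5244 bp, introns included. Among the 6157 genes of 2000 to 4000 bp the median log2 difference was -0.02, with quartiles of -0.17 and 0.12. Of these genes 45.4% had a more negative difference than ICL, 35.1% than SDP1 and 15.4% than AAE18. AIM1 falls among the 1435 genes of 4000 to 8000 bp, where the median was -0.18, with quartiles of -0.34 and -0.02. Its difference of -0.17 lies close to that median, with 51.3% of the class below it. In that class 53.1% of genes had genotypes that did not overlap with wrky43-1 lower, as AIM1 did.

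A straight line in log10 length, fitted over all 16505 genes, fell by 0.15 per 10-fold of length. With this line taken off, the log2 difference was 0.01 for ICL, -0.04 for SDP1, -0.09 for AIM1 and -0.19 for AAE18. The limma adjusted p of AAE18 was then 0.492, within the 0.192 to 0.637 that it had over the 12 alternatives. The line at the length of AIM1 was -0.08, against a median of -0.18 in its length class.

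**Figure D3:**
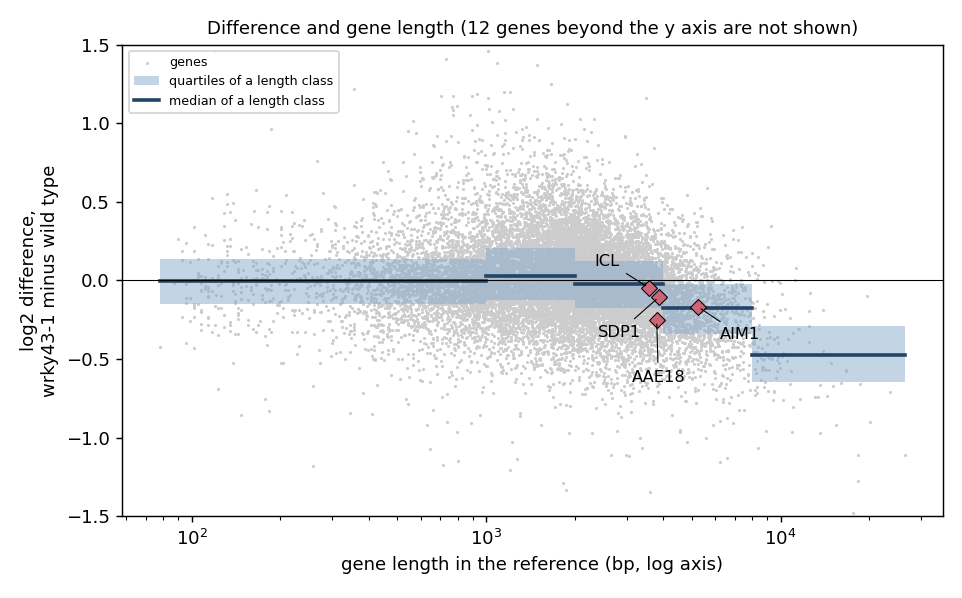
Log2 difference (wrky43-1 minus wild type) of each gene against its length in the reference on a log axis, with the median and quartiles of 5 length classes and the 4 genes as diamonds. AIM1 sits near the median of its class, ICL and SDP1 lie inside the quartiles of theirs, and AAE18 lies below them.

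Genes with the most similar pattern over the 4 arrays were found by the root-mean-square difference of log2 values, each taken from the gene's own mean. For ICL these were AN (AT1G01510, 0.0058) and AT1G25460 (0.0062). For SDP1 they were AT4G34140 (0.0084) and AT3G63090 (0.010), and for AIM1 AT4G04775 (0.0098) and the expansin gene EXPA21 (0.012). For AAE18 they were AT5G62760 (0.0038) and AT2G32640 (0.0062). Such closeness was common with 4 arrays: of 16504 other genes, 819 lay within 0.05 of ICL, 366 of SDP1, 287 of AIM1 and 454 of AAE18.

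The sign of the 4 differences was compared over 12 other ways of processing. The replicate block, the filters, the variance trend and the fit on probe sets with 1 gene leave each difference unchanged by construction. Centring lowered every difference by the same amount. Where the genotypes do not overlap, as for AAE18 and AIM1, leaving out 1 array cannot change the sign. AAE18 stayed between -0.33 and -0.19 and AIM1 between -0.26 and -0.07. SDP1 stayed below 0 in all 12, but was -7.2e-04 without wrky43-1 replicate 2. ICL was above 0 in 2 of the 12. In none of the 12 did any of the 4 genes pass the threshold, and no interval reached a 2-fold change.

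**Figure D4:**
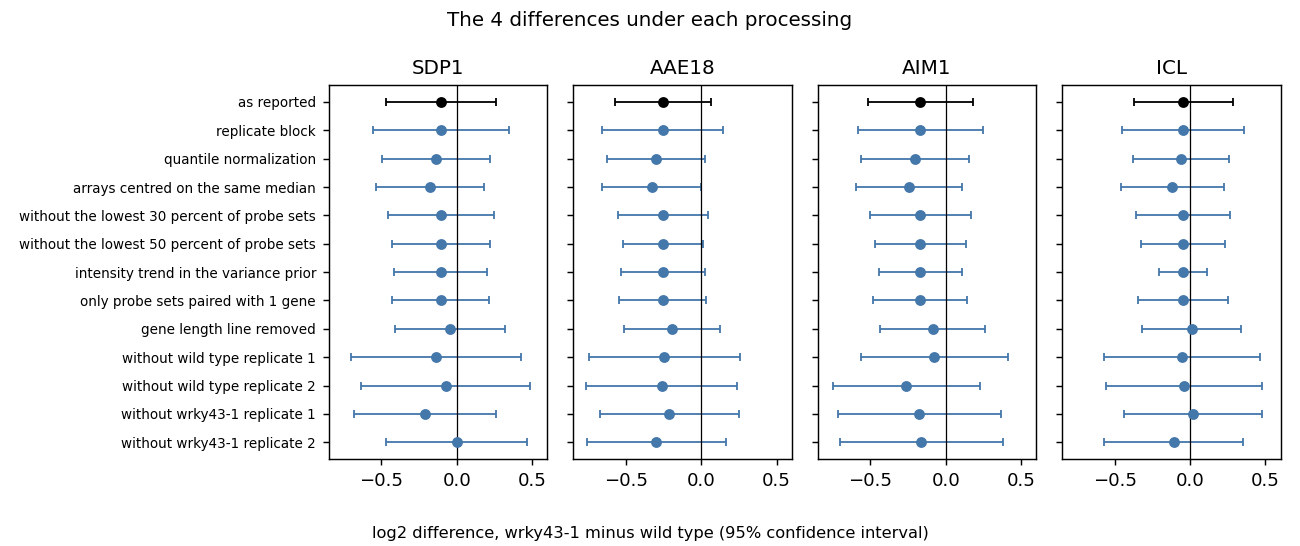
Log2 difference (wrky43-1 minus wild type) with its 95% confidence interval for each of the 4 genes, as reported (black) and under 12 other ways of processing (blue). Every interval includes 0. As reported, the interval of AAE18 lies furthest to the left of the 4, which does not hold under every other way of processing.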

How the data were processed

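The deposited series table holds 38408 probe sets on 4 arrays of biotin-labelled total RNA. How the authors made the deposited values, which were read as log2 because they lie between 1.18 and 14.27, is not stated in the sources used here, background correction, normalization and probe summary included. Nor is the part of a gene that a probe set covers.

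Names came from the platform's annotation, symbols and lengths from TAIR10.1. A single gene was given for 16722 probe sets and several for 759; 16670 of the former matched 16505 genes, each represented by its probe set with the highest mean. Genotypes were compared with limma 3.58.1 in R 4.3.3 over all probe sets, two-sided, with Benjamini-Hochberg adjustment at a threshold of 0.05. Degrees of freedom were 2 (residual) and 2.34 (prior), and the median SE was 0.15. The fit was run on simulated data with planted differences far larger than those of the 4 genes. The recovery of differences as small as theirs was not tested.

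The members and lists were chosen with earlier results of these data known, and the seed markers, the 1-gene setting and, for the 4 genes, the filter of the lowest 50 percent after the data had been seen. Named were the 4 genes, all measured members of 4 lists (lipolysis, beta-oxidation, glyoxylate cycle, acyl-activating enzymes), up to 3 of each other list, and 2 genes of most similar pattern for each of the 4. Alternatives were the replicate block, quantile normalization, centring, filters, the variance trend, the length line and leaving out each array.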

Additional observations from a re-analysis of the deposited data

How the results depend on the processing

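With 2 arrays per genotype precision is limited, and signal over background is not known. Each of the 4 genes has 1 probe set, so the mean of several probe sets was not run. The log2 difference of ICL, -0.05 as reported, was 0.010 with the length line removed and 0.019 without wrky43-1 replicate 1. The other 3 genes kept their sign in all 12 settings, several of which cannot change a sign by construction. Same-numbered arrays did not deviate together (r = -0.03 over 38408 probe sets). With 2 arrays per genotype, this r cannot tell whether same-numbered samples were grown or processed together. With the replicate block the differences are the same by construction and the adjusted p was 0.908 for ICL, 0.787 for SDP1, 0.632 for AIM1 and 0.476 for AAE18. Leaving out each array gave -0.11 to 0.02 for ICL, -0.21 to -7.2e-04 for SDP1, -0.26 to -0.07 for AIM1 and -0.30 to -0.21 for AAE18, with 1 residual degree of freedom and a lone array taken to vary as the other genotype does.

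Probe sets called higher, 1 as reported, were 12 among probe sets with 1 gene, 74 where the variance prior followed intensity, 2 after centring, 6 after dropping the lowest 50 percent, 0 in the blocked fit, and 0 to 0 without single arrays. Those called lower, 0 as reported in limma with 1002 genes lower at an unadjusted p under 0.05, were 30 with the intensity trend and 6 among probe sets with 1 gene. None of these settings called any of the 4 genes. The median of the 3 acyl-activating enzymes, -0.25 as reported, was -0.32 with centring, -0.30 with quantile normalization, -0.16 with the length line removed and -0.30 to 0.012 without single arrays. The lipolysis median lay between -0.28 and -0.14 in the settings run. The cause of these changes was not tested, beyond the fewer probe sets or arrays that a setting has by construction.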
